A study of Mus musculus with 8 samples.

Results

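The type I interferon-stimulated genes described here are 32 genes picked by symbol, among them the IFIT, OAS and Mx families, Isg15, Rsad2, the RNA sensors Ifih1, Ddx58 and Dhx58, and the transcription factors Irf7, Irf9 and Stat2. All 32 were found among the 52459 genes listed in the bulk RNA-seq table. In the single-cell matrices 31 of them were found among 31053 genes, and Mx2 was not analysed there. The genes were ordered into 7 groups by what their products do.

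Type I interferons bind a receptor made of IFNAR1 and IFNAR2, and the kinases JAK1 and TYK2 then pass the signal on. STAT2 and IRF9 act in the complex ISGF3, which binds a DNA element of repeated GAAA in the promoters of interferon-stimulated genes. The products sense foreign nucleic acid, block viral RNA, or damp the signal, and macrophages and neutrophils are among the cells that carry the program in tumors. Many of these genes also respond to interferon-gamma.

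Liver metastatic tumors were compared with primary pancreatic tumors. Both were grown in C57BL/6 mice from FC1242, a mouse cancer line of the KPC model of pancreatic cancer, so every sample carries the same tumor line and the results are those of 1 line. The labels give 100000 injected cells and harvest after 3 weeks at both sites, with no age or sex. Bulk RNA-seq was made from 3 liver and 3 primary tumors, and 1 droplet single-cell library of cells sorted for CD45, the surface protein of leukocytes, was made per site. The labels do not say that the 3 libraries of a site came from separate mice, so the p-values measure the spread between these libraries, which may be technical.

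The bulk libraries held 27481390 to 36743247 reads, and 16487 genes passed the filter on low counts. In the liver tumors all 19 genes of a hepatocyte list were higher. Their mean summed level was 113512 CPM (reads scaled to a common library total) in liver and 539 CPM in primary tumors. Of a Kupffer or resident macrophage list 8 of 9 genes were higher, and of a liver sinusoidal endothelial list 7 of 7. All 7 genes of a leukocyte list were also higher, with a mean summed level of 309 CPM in liver and 142 CPM in primary tumors. In bulk tissue, fewer cells of a type and less RNA per cell cannot be told apart. The single-cell libraries gave 7533 liver and 2270 primary cells with median depths of 6707 and 12014.5 UMIs (unique molecules), and 7 cell barcodes occurred in both libraries. Although the cells were sorted for CD45, 46.7% of the liver cells and 14.2% of the primary cells were epithelial-like. Ptprc, the gene of CD45, had 15.3 and 8.50 CPM (UMIs scaled to a common total of the class) in those liver and primary cells, against 281 and 497 CPM in macrophage-like cells of the same libraries.

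The promoters show what the genes share in sequence. A window of 300 bases, from 250 before to 50 after the RefSeq start site (build GRCm38.p6), was matched by symbol for 23 of the 32 genes, in 26 windows. It was searched on both strands for GAAANNGAAA, the core of the ISGF3 element, with overlapping matches counted apart. The motif lay in the window of 13 of the 23 genes (56.5%), against 1079 of 27025 genes overall (3.99%). It also lay in 10 of 17 interferon-gamma-induced genes (58.8%) and 20 of 45 further interferon-stimulated genes (44.4%). A match describes the letters and is not a binding site. The genes without a match were Cmpk2, Herc6, Ifi35, Ifi44, Ifit2, Irf7, Irf9, Oasl1, Oasl2 and Xaf1. The 250 bases before the start are given for 6 genes that recur in the results: Ifit3, Ifit3b, Isg15 and Rsad2, which stood far apart between the single-cell libraries, Stat2, which was higher in the liver tumors under every setting tried, and Bst2, the most abundant of the genes per length. Capitals mark the motif as read on either strand.
Ifit3 (chr19:34583279-34583528, plus strand): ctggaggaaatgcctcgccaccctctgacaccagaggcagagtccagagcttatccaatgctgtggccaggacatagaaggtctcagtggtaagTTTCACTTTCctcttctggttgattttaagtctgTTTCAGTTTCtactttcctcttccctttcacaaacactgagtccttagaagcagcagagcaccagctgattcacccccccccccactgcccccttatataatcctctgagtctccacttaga
Ifit3b (chr19:34607707-34607956, plus strand): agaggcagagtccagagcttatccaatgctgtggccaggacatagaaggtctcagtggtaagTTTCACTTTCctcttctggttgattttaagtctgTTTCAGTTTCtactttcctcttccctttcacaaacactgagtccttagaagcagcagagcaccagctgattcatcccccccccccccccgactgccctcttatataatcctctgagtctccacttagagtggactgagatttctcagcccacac
Isg15 (chr4:156200819-156201068, minus strand): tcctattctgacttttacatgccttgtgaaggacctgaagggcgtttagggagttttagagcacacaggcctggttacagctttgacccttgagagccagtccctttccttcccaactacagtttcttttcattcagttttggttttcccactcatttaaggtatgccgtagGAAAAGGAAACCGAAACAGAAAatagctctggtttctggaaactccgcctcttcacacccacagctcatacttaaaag
Rsad2 (chr12:26456453-26456702, minus strand): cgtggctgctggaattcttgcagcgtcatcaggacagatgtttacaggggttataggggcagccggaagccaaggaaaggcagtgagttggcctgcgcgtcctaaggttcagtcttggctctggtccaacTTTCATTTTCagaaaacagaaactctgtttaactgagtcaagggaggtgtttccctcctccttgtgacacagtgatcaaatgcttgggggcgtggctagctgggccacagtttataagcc
Stat2 (chr10:128270248-128270497, plus strand): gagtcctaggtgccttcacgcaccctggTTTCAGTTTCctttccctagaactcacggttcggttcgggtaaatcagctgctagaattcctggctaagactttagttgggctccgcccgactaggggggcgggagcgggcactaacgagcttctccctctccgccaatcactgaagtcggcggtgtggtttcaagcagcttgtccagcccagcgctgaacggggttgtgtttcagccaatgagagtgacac
Bst2 (chr8:71537473-71537722, minus strand): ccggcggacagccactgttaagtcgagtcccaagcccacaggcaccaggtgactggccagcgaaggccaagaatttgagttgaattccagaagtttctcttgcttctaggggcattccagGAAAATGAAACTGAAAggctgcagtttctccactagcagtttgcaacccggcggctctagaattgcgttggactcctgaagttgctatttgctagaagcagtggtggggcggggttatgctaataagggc
In Isg15, 3 overlapping matches formed 1 run, and in Bst2 2 overlapping matches did. Ifit3 and Ifit3b carried the same pair of matches at the same spacing. In Ifih1, Ddx58 and Eif2ak2 the single match lay after the start site and is not printed. Ifit3 and Ifit3b stand side by side with Ifit1 and Ifit2 on chromosome 19 (34550694 to 34650009), and the OAS genes lie on chromosome 5.

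In the bulk tumors, 9 of the 32 genes were higher in liver and 0 were lower (edgeR quasi-likelihood test with Benjamini-Hochberg adjustment over all tested genes at 0.05). The 9 were Parp14, Stat2, Ifi27l2a, Ifih1, Trim30a, Zbp1, Bst2, Rtp4 and Herc6. Over all tested genes 16.7% were called higher and 6.26% lower. At an unadjusted p under 0.05 in edgeR there were 15 higher and 0 lower, while 6051 of all 16487 tested genes had such a p in either direction. DESeq2 and limma-voom also called 0 lower. The median log2 change of the 32 was 0.55, against -0.07 for all tested genes, and 27 of the 32 changes were above 0. Every liver library lay above every primary library for 15 of the 32, a pattern seen in 23.8% of all tested genes, and the opposite held for 0 of the 32 and 20.2% of all genes. Summed over the 32 genes, the level was 1233, 973 and 897 CPM in liver tumors 1, 2 and 3, against 574, 619 and 651 CPM in primary tumors 1, 2 and 3. Summed leukocyte genes were also higher in every liver tumor, at 295, 329 and 303 CPM, against 147, 148 and 130 CPM in the primary tumors. Within a site the order differed. Liver tumor 1 and primary tumor 3 were highest of their site for the 32 genes and lowest for the leukocyte genes. Of a monocyte and macrophage list, 10 of 14 genes were higher in liver. The part of leukocytes, macrophages, hepatocytes and sinusoidal endothelial cells in the result was not tested. With hepatocyte and liver-only genes taken out of the library sizes, 9 of the 32 genes were still called higher.

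The plot of every library's level shows where the sites separate, and the plot of the changes shows the call for each gene.

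**Figure D1:**
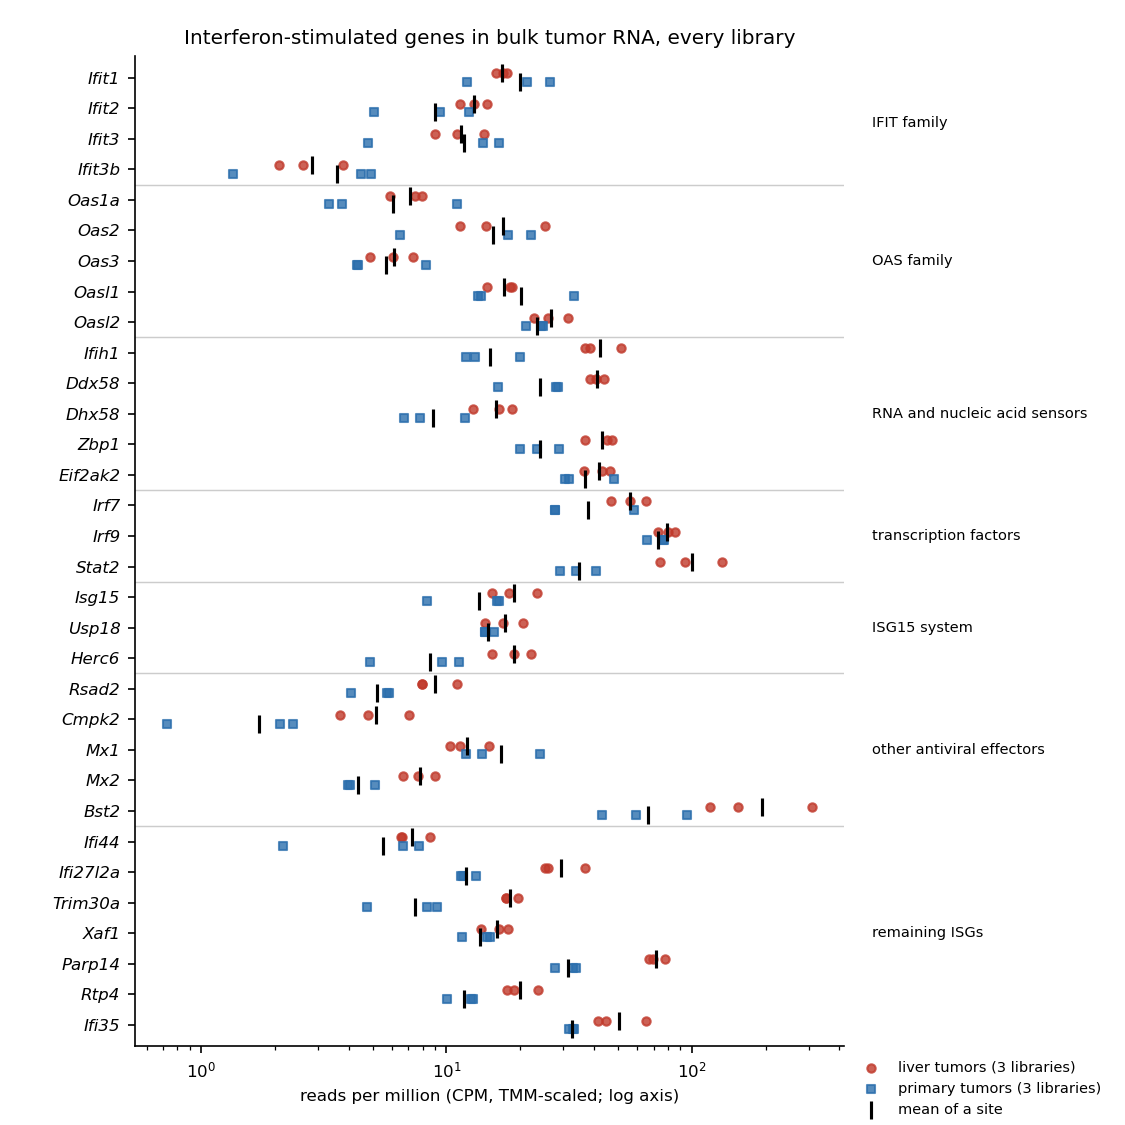
Level of each of the 32 genes in every bulk library, in CPM on a log axis, with liver tumors as red circles, primary tumors as blue squares and the mean of each site as a black bar. The liver libraries lie apart from the primary ones for Ifih1, Stat2, Parp14 and Ifi27l2a, while the sites overlap throughout the IFIT and OAS groups.

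**Figure D2:**
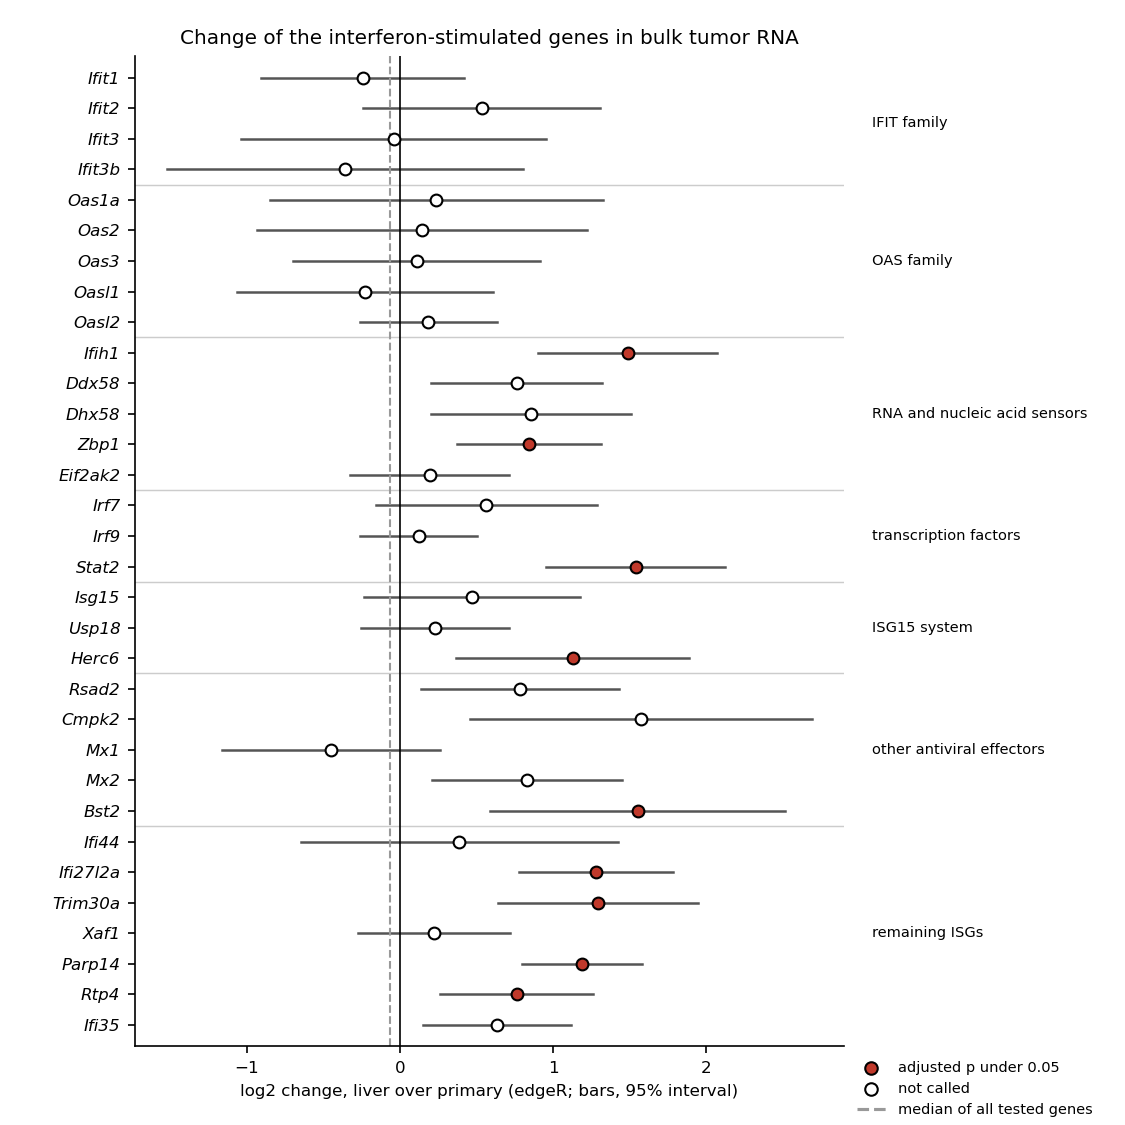
Log2 change of each gene, liver over primary, from edgeR, with 95% intervals from 3 libraries per site; filled points have an adjusted p under 0.05 and the dashed line is the median of all tested genes. The 9 filled points all lie above 0, and the 4 IFIT and 5 OAS intervals all span 0.

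The IFIT genes, whose products bind viral RNA that lacks host cap marks, did not pass the test, with 0 of 4 called and a median log2 change of -0.14. Ifit3 had 14.3, 11.1 and 9.02 CPM in the liver tumors and 16.4, 4.78 and 14.1 CPM in the primary tumors, a log2 change of -0.04 (SE 0.43, adjusted p = 0.958 in edgeR). The primary values spread more widely than the liver values and enclosed them. Ifit1 had 17.0, 15.9 and 17.7 CPM in liver and 26.6, 12.1 and 21.2 CPM in primary tumors (log2 change -0.24, SE 0.29). Ifit2 (0.53) and Ifit3b (-0.36) also overlapped between the sites. Primary tumor 2 was the lowest of the 6 libraries for all 4 IFIT genes. Of the 31-base stretches in Ifit3 transcripts, 61.8% also occur in Ifit3b, so the split of reads between them is uncertain.

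The OAS genes make or resemble the enzymes that produce 2'-5' oligoadenylate, the activator of RNase L. None of the 5 was called, and their median log2 change was 0.14. In Oasl1 the primary tumors held both extremes, with 18.5, 18.2 and 14.7 CPM in liver against 13.4, 33.2 and 13.8 CPM in primary tumors (log2 change -0.23, SE 0.36). Oas1a showed the same form, 7.96, 5.87 and 7.47 CPM in liver and 3.76, 11.02 and 3.33 CPM in primary tumors, with a log2 change of 0.24 (SE 0.47). Primary tumor 2 was the highest library for Oas1a, Oas3 and Oasl1 and stood apart from the other two primary tumors. Its summed level of epithelial markers was also the highest, 11262 CPM against 4877 and 5599 CPM in primary tumors 1 and 3, and the part of that difference in the OAS values was not tested. Oas2, Oas3 and Oasl2 had log2 changes of 0.14, 0.11 and 0.19. Oas1a shares 68.7% of its 31-base stretches with Oas1g, so its counts are uncertain.

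The RNA and nucleic acid sensors gave clearer differences, with 2 of 5 called and a median log2 change of 0.84. Ifih1, which encodes the long double-stranded RNA sensor MDA5, had 36.9, 51.3 and 38.3 CPM in the liver tumors, against 13.1, 19.96 and 12.1 CPM in the primary tumors. The groups did not overlap, and the log2 change was 1.49 (SE 0.25, adjusted p = 0.00421 in edgeR). Zbp1, a sensor of Z-form nucleic acid that can trigger necroptosis, had 47.1, 36.8 and 45.2 CPM in liver and 19.9, 23.4 and 28.7 CPM in primary tumors (log2 change 0.84, SE 0.20, adjusted p = 0.0211). Ddx58, which encodes RIG-I, had 38.6, 43.8 and 40.5 CPM in liver against 27.9, 16.2 and 28.4 CPM in primary tumors. Its groups did not overlap, but the adjusted p of 0.0551 missed the threshold, and so did that of Dhx58 (LGP2), 0.064. Eif2ak2, which encodes the kinase PKR, overlapped between the sites (log2 change 0.19).

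Among the transcription factors only Stat2 was called. It had 133, 93.8 and 74.5 CPM in the liver tumors and 33.8, 29.0 and 40.9 CPM in the primary tumors, a log2 change of 1.54 (SE 0.26, adjusted p = 0.00355 in edgeR). The lowest liver value lay well above the highest primary value. Its partner in ISGF3, Irf9, had 85.4, 73.2 and 80.0 CPM in liver and 65.8, 76.1 and 77.4 CPM in primary tumors, a log2 change of 0.12 (SE 0.17) with overlapping groups. Irf7, which drives the amplifying wave of interferon production, had 65.1, 56.2 and 46.7 CPM in liver against 27.8, 58.2 and 27.8 CPM in primary tumors (log2 change 0.56, SE 0.31). Here primary tumor 2 again stood apart from the other primary tumors and lay within the liver range, and without it Irf7 was called (log2 change 1.01, adjusted p = 0.00599).

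Isg15, a ubiquitin-like protein joined to other proteins, had 23.4, 15.3 and 18.0 CPM in liver and 16.4, 8.31 and 16.04 CPM in primary tumors. The groups overlapped (log2 change 0.47, SE 0.31, adjusted p = 0.305 in edgeR). Usp18, which removes ISG15 and damps receptor signaling, also overlapped (0.23, SE 0.21). Herc6, the mouse ligase that attaches ISG15, had 15.4, 22.2 and 18.8 CPM in liver against 9.64, 4.88 and 11.2 CPM in primary tumors, with no overlap (log2 change 1.13, SE 0.33, adjusted p = 0.0428). The call on Herc6 was lost without any 1 of the liver tumors and without primary tumor 1, and 13.7% of its exonic bases are shared with the gene model Gm45193.

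Of the other antiviral effectors 1 of 5 was called. Bst2, the tetherin that holds budding virus at the cell surface, had 308, 155 and 119 CPM in the liver tumors against 59.4, 43.2 and 95.6 CPM in the primary tumors. The groups did not overlap, although liver tumor 1 stood far above the other two, and the log2 change was 1.55 (SE 0.42, adjusted p = 0.032). Bst2 also marks plasmacytoid dendritic cells, and 4 of the 7 tested genes of that list, Bst2 included, were higher in liver and 1 was lower. Rsad2 (viperin), which makes a chain-terminating nucleotide, had 7.96, 11.1 and 7.98 CPM in liver and 5.83, 4.09 and 5.74 CPM in primary tumors (log2 change 0.78, SE 0.28, adjusted p = 0.0808). Its neighbor on chromosome 12, Cmpk2, a mitochondrial nucleotide kinase, had the largest change of the 32, 1.57 (SE 0.49), from low levels of 4.80, 7.03 and 3.69 CPM in liver and 2.36, 0.728 and 2.09 CPM in primary tumors, and its adjusted p of 0.0504 lay at the threshold. The dynamin-like GTPases split. Mx2, which GENCODE annotates as a polymorphic pseudogene in the reference strain, had 9.02, 7.65 and 6.67 CPM in liver and 4.03, 3.98 and 5.10 CPM in primary tumors without overlap, while Mx1 had 14.9, 10.3 and 11.3 CPM in liver against 12.0, 24.0 and 14.0 CPM in primary tumors with overlap. Neither was called (adjusted p = 0.0599 for Mx2 and 0.329 for Mx1).

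The 7 remaining genes held 4 of the 9 calls. Parp14, a mono-ADP-ribosyltransferase, had the smallest p of the 32, with 69.9, 77.8 and 67.2 CPM in liver and 27.6, 32.8 and 33.8 CPM in primary tumors (log2 change 1.19, SE 0.17, adjusted p = 0.00164 in edgeR). Ifi27l2a had 36.8, 26.0 and 25.3 CPM in liver against 13.2, 11.4 and 11.6 CPM in primary tumors (1.28, SE 0.22, adjusted p = 0.00403). Trim30a, a TRIM protein known in mice to restrain Toll-like receptor signaling, had 17.6, 19.6 and 17.5 CPM in liver and 8.36, 4.75 and 9.15 CPM in primary tumors (1.29, SE 0.28, adjusted p = 0.0134). In these 3 genes the lowest liver library lay well above the highest primary library. Rtp4 was the last called gene, with 23.6, 18.8 and 17.7 CPM in liver and 10.0, 12.8 and 12.6 CPM in primary tumors (0.76, SE 0.22, adjusted p = 0.0391). Its call held in only 1 of the 6 fits that left out a library, the one without primary tumor 2, and 13.9% of its exonic bases are shared with the gene model Gm45338. Ifi35 separated the sites without being called (0.64, SE 0.21, adjusted p = 0.0636), and 16.8% of its exonic bases overlap Gm11626 on the other strand, from which reads cannot be told apart because strandedness is not given in the sources used here. Ifi44 (0.39) and Xaf1 (0.22), a pro-apoptotic protein, overlapped between the sites.

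The number of calls depended on single libraries. It was 4 without liver tumor 1, 5 without liver tumor 2 and 14 without primary tumor 2, against 9 with all libraries. Without primary tumor 2, Irf7, Oas1a, Ddx58, Dhx58 and Cmpk2 were called as well. Bst2 was not called without liver tumor 1, liver tumor 2 or primary tumor 1, Trim30a not without liver tumor 1 or 2, and Zbp1 not without liver tumor 1, liver tumor 3 or primary tumor 1. Parp14, Stat2, Ifi27l2a and Ifih1 were called in each of these fits and in every other setting tried. Liver tumor 1 was the highest of the 6 libraries for 14 of the 32 genes, and primary tumor 2 was the lowest for 16 and the highest for 5. On the FPKM scale, which adjusts for transcript length, Bst2 had the highest level of the 32 at both sites, 216 ± 111 FPKM in liver and 72.3 ± 28.4 FPKM in primary tumors (SD, n = 3 each). Ifi27l2a came next at 63.7 ± 13.8 and 25.9 ± 2.14 FPKM, while Cmpk2 was among the lowest at 1.25 ± 0.439 and 0.41 ± 0.212 FPKM in liver and primary tumors.

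The single-cell libraries show which cells carried the genes. Each site has 1 library, so no test was run, and the 95% intervals (exact Poisson for levels, exact Clopper-Pearson for shares) cover counting error only. Macrophage-like cells, a class that includes monocytes, held 80.6% of the UMIs of the 31 genes in the liver library and 77.0% in the primary library. These cells made up 41.0% of the liver cells and 67.1% of the primary cells. Of the UMIs of all genes they held 36310788 in liver and 22638658 in primary, more than any other class. The shares therefore reflect the size of the class as well as its level. Summed over the 31 genes, their level was 2024 CPM (2010 to 2039) in 3092 liver cells, against 1146 (1132 to 1160) in 1523 primary cells, a ratio of 1.77. Neutrophil-like cells had the opposite order, with 1493 (1422 to 1565) in 509 liver cells against 2950 (2820 to 3085) in 222 primary cells, a ratio of 0.51. Epithelial-like cells had 493 in 3518 liver cells and 562 in 322 primary cells, and T-like cells had 666 in 156 liver cells and 726 in 128 primary cells. The plot of summed levels by class shows this crossing.

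**Figure D3:**
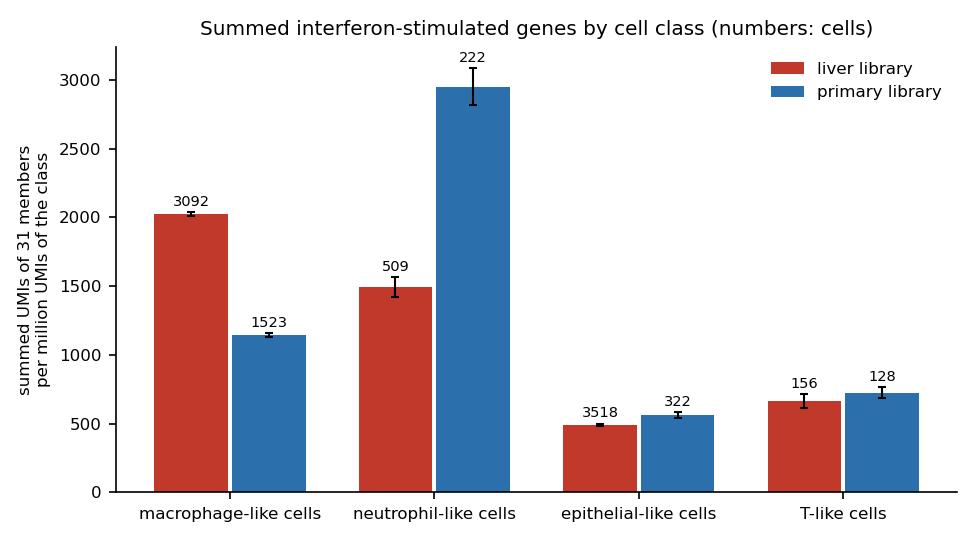
Summed level of the 31 genes in each class, in CPM, for the liver library (red) and the primary library (blue), with exact 95% Poisson intervals and the number of cells above each bar. Macrophage-like cells were higher in the liver library (2024 against 1146) and neutrophil-like cells lower (1493 against 2950).

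Free RNA was measured in barcodes of 10 to 100 UMIs, where the 31 genes summed to 1037 CPM in the liver library and 1056 in the primary library. These values rest on only 497 UMIs of the genes in 21816 liver barcodes and 399 in 18590 primary barcodes. The primary macrophage-like level lay close to the value of these barcodes, and the epithelial-like and T-like levels lay below it. The neutrophil-like levels and the liver macrophage-like level lay above it. Barcodes of 500 to just under 1000 UMIs gave lower values, 747 CPM in liver and 304 CPM in primary. Those values rest on 35047 UMIs of the genes in 65373 liver barcodes and 2727 in 13157 primary barcodes. The primary macrophage-like, epithelial-like and T-like levels all lay above that primary value. The liver epithelial-like and T-like levels lay below that liver value. Which barcodes measure free RNA better was not tested. Leaving out Ifi27l2a and Bst2, the most abundant of the genes in macrophage-like cells, gave ratios of 1.69 in macrophage-like and 0.464 in neutrophil-like cells.

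The share of cells that carried many of the genes followed the same order. After each cell was thinned to 1500 UMIs, at least 5 of the 31 genes were detected in 10.96% (9.88 to 12.1) of the liver macrophage-like cells and 4.14% (3.19 to 5.26) of the primary ones. In neutrophil-like cells the shares were 8.06% (5.84 to 10.8) in liver and 16.2% (11.6 to 21.7) in primary. Without thinning they were 73.8% and 62.8% in liver and primary macrophage-like cells, at median depths of 10836.5 and 13940 UMIs, and 12.2% and 28.4% in liver and primary neutrophil-like cells, at 2082 and 2726 UMIs. The thinned share was 0.77% in liver and 1.24% in primary epithelial-like cells, a difference that turned with another random draw of the thinning. The program was unevenly spread among the primary neutrophil-like cells, where the top 10% of cells held 61.2% of the thinned UMIs of the genes, against 45.6% in the liver neutrophil-like cells. The median cell had 1 such UMI in both libraries, and none was found in 24.4% of the liver and 29.7% of the primary neutrophil-like cells. One primary neutrophil-like cell had 130 of its 1500 thinned UMIs in these genes.

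Gene by gene, macrophage-like cells of the liver library were above those of the primary library, with intervals apart, for 25 of the 31 genes and below for 2. Over 11843 genes with enough UMIs, 33.0% were above and 34.0% below. The median ratio of the 31 was 1.85, against 0.99 for those genes. All 4 IFIT genes, all 5 OAS genes and all 4 measured antiviral effectors were above, as were 4 of 5 sensors, 5 of 7 remaining genes, 2 of 3 genes of the ISG15 system and 1 of 3 transcription factors.

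The largest ratios belonged to Ifit3b (9.64, 201 UMIs in liver and 13 in primary cells), Ifit3 (5.82), Cmpk2 (5.40), Mx1 (3.70) and Ifit1 (3.56). Ifit3 had 31.9 CPM in the liver cells and 5.48 in the primary cells. The smallest ratios were those of Herc6 (0.70), Stat2 (0.80), Ifi44 (0.87), Parp14 (0.95) and Ifih1 (1.02). Stat2 had 36.4 CPM in liver and 45.3 in primary macrophage-like cells, and Herc6 had 19.1 in liver and 27.2 in primary cells, so both lay below in liver with intervals apart. By UMIs over both libraries together the most abundant of the genes were Ifi27l2a, at 512 CPM in liver and 247 CPM in primary cells, Bst2 (333 in liver, 199 in primary), Isg15 (129 in liver, 51.8 in primary), Zbp1 (86.4 in liver, 69.0 in primary) and Parp14 (75.0 in liver, 79.0 in primary). Trim30a was among the top 5 within each library.

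**Figure D4:**
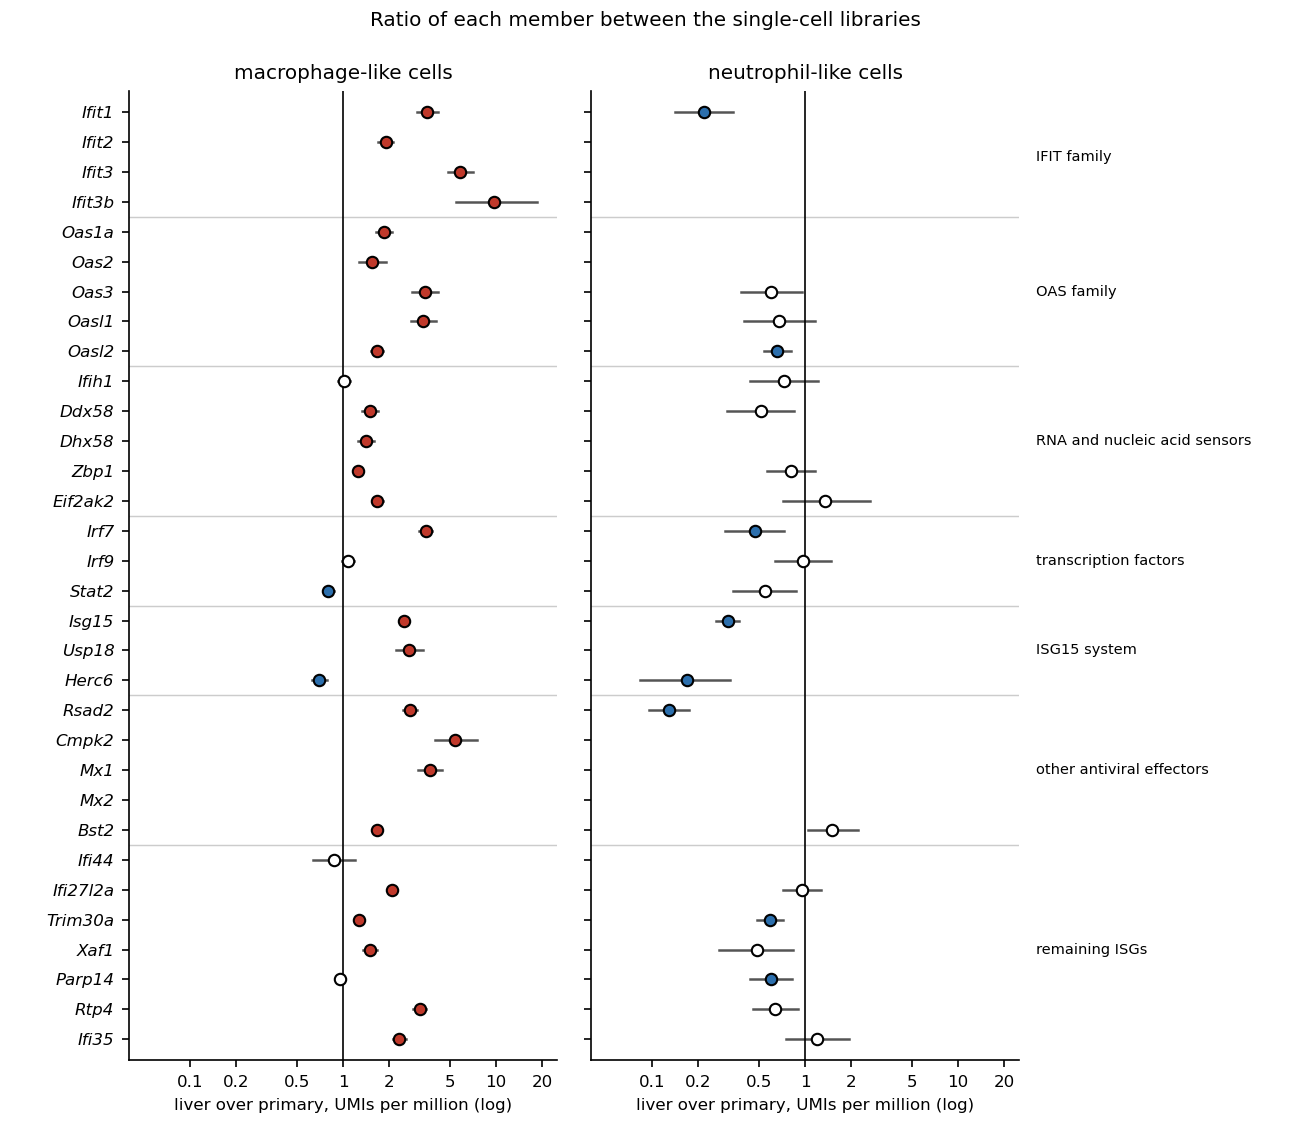
Ratio of CPM, liver over primary, for each gene with at least 50 UMIs in macrophage-like (left) and neutrophil-like cells (right), on a log axis with 95% intervals; filled points are genes whose levels have intervals apart (red above in liver, blue below). In macrophage-like cells 25 genes are above, and in neutrophil-like cells no filled point lies above 1.

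The bulk calls and the levels in macrophage-like cells can be set side by side. Of the 9 genes higher in bulk liver tumors, 5 were above in liver macrophage-like cells (Bst2, Ifi27l2a, Rtp4, Trim30a and Zbp1), 2 were below (Stat2 and Herc6), and 2 had overlapping intervals (Ifih1 and Parp14). Of the 22 measured genes without a call in bulk, 20 were above in liver macrophage-like cells, the 4 IFIT and 5 OAS genes among them, and Ifi44 and Irf9 overlapped. Thus 3 of the 4 genes that were called in every bulk setting, Stat2, Ifih1 and Parp14, were not above in this class. In epithelial-like cells Stat2 had 9.91 CPM in liver and 14.4 CPM in primary cells and Ifih1 had 13.2 and 16.1 CPM in liver and primary cells, with overlapping intervals, and Parp14 was below in liver (19.6 against 29.99 CPM).

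In neutrophil-like cells 0 of the 31 genes were above in liver and 11 were below with intervals apart. Of the 21 genes with at least 50 UMIs, 0 were above and 8 below, against 18.9% above and 17.6% below among the 4631 genes with as many. The median ratio of the 21 genes with at least 50 UMIs was 0.60, against 1.03 for those 4631 genes. The 11 were Rsad2, Ifit3, Herc6, Ifit1, Usp18, Ifit2, Isg15, Irf7, Trim30a, Parp14 and Oasl2. Rsad2 had 50.9 CPM in the liver cells and 393 in the primary cells, a ratio of 0.13. Isg15 had 175 in liver and 559 in primary cells (0.31), and Ifit1 had 27.2 and 124 in liver and primary cells (0.22). These cells were shallow. Ifit2, Ifit3 and Usp18 had under 50 UMIs over both libraries, and Ifit3 rested on 6 liver and 21 primary UMIs. The largest ratios, with overlapping intervals, were those of Bst2 (1.51), Eif2ak2 (1.34) and Ifi35 (1.19). Most liver neutrophil-like cells lay in cluster 8 (485 liver and 51 primary cells) and most primary ones in cluster 14 (24 and 171). The summed level was lower in liver within both, at 1499 against 2885 CPM in cluster 8 and 1378 against 2974 in cluster 14, and 22 of the 31 genes were lower in both. Of the 21 with at least 50 UMIs, 15 were lower in both, against 38.2% of the 4631 genes. The 24 liver cells of cluster 14 held only 80 UMIs of the 31 genes, against 1428 in its primary cells. The order of single genes in that cluster is therefore uncertain.

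Epithelial-like cells had 4 genes above in liver (Mx1, Ifi27l2a, Ifi35 and Eif2ak2) and 11 below. Of the 27 with at least 50 UMIs, 4 were above and 9 below, against 16.8% above and 24.7% below of 11412 genes. Mx1 had 7.73 CPM in liver and 2.36 in primary cells, while Bst2 had 92.6 in liver and 128 in primary cells. The class also holds cluster 28, of 28 liver and 0 primary cells, whose own markers name hepatocytes. In T-like cells all 31 genes had overlapping intervals, but only 13 had at least 50 UMIs, the minimum that the 6282 genes of the background met (6.46% above and 8.96% below). A difference in the other 18 was not detectable at this depth.

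The macrophage-like cells of the liver and primary libraries fell largely into different clusters. Both libraries were clustered together with no step to remove differences between libraries. A split by site therefore cannot be told apart from a split by library or depth. Clusters 1 (led by Cx3cr1 and Ccr2), 2 (Gpnmb and Fabp5) and 6 (Vcan and Ccl24) held 30.4%, 29.4% and 17.9% of the liver cells. Clusters 3 (Pde4b, Tgfb3 and Rgs1) and 10 (Cxcl9, Mmp13 and Gbp2b) held 48.4% and 25.3% of the primary cells. Cluster 3, with 17 liver and 737 primary cells, had the lowest summed level of the 31 genes, 641 CPM in its primary cells. Its 10 leading genes include Il1r2, on the neutrophil list, and those of cluster 16 include Gkn1, on the epithelial list. None of the 10 leading genes of either is on the monocyte and macrophage list used here, but the same holds for clusters 2 and 6, among others. By its own markers cluster 3 was named monocyte or macrophage, with 5 markers up, against 4 in cluster 2 and 3 in cluster 6. Cluster 18 (Ccl17 and Mgl2, with 80 liver and 29 primary cells) belongs to the class, but its own markers name dendritic cells. Clusters 12, 16, 17 and 23 took no name of their own.

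The comparison was therefore repeated over the 8 clusters with at least 20 cells of each library, a choice made after the values were seen. Clusters 3, 16 and 23 are left out there. There 2895 liver and 767 primary cells gave a ratio of 1.34 for the summed level, smaller than the 1.77 over the whole class, and 1.33 without cluster 18. In 6 of the 8 clusters, cluster 18 among them, the liver cells were higher with intervals apart, as in cluster 10 (2361 CPM in liver against 1604 in primary cells) and cluster 12 (1601 against 903). In cluster 2 (1800 in liver, 1831 in primary) and in cluster 13, led by the resident macrophage gene Cd5l (2344 and 2453), the intervals overlapped. Liver levels were higher in all 8 clusters for 11 of the 31 genes, against 7.18% of 11596 genes with enough UMIs: Ifit1, Ifit2, Ifit3, Ifit3b, Rsad2, Mx1, Oasl1, Usp18, Irf7, Cmpk2 and Ifi35. Over the 8 clusters the interval of the pooled ratio lay above 1 for 19 genes and below 1 for 7, against 27.8% above and 40.0% below over all those genes. The 7 were Irf9, Stat2, Ifi44, Trim30a, Zbp1, Parp14 and Herc6. The pooled ratio still mixes unlike clusters, since cluster 10 holds 385 of the 767 primary cells and 62 of the 2895 liver cells. Within clusters, Irf9, Ifi44, Trim30a and Herc6 were higher in liver in 4 and lower in 4, and Stat2, Zbp1 and Parp14 were higher in 3 and lower in 5. The share of cells with at least 5 of the genes differed by 3.71 percentage points in these clusters, against 6.83 over the class.

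**Figure D5:**
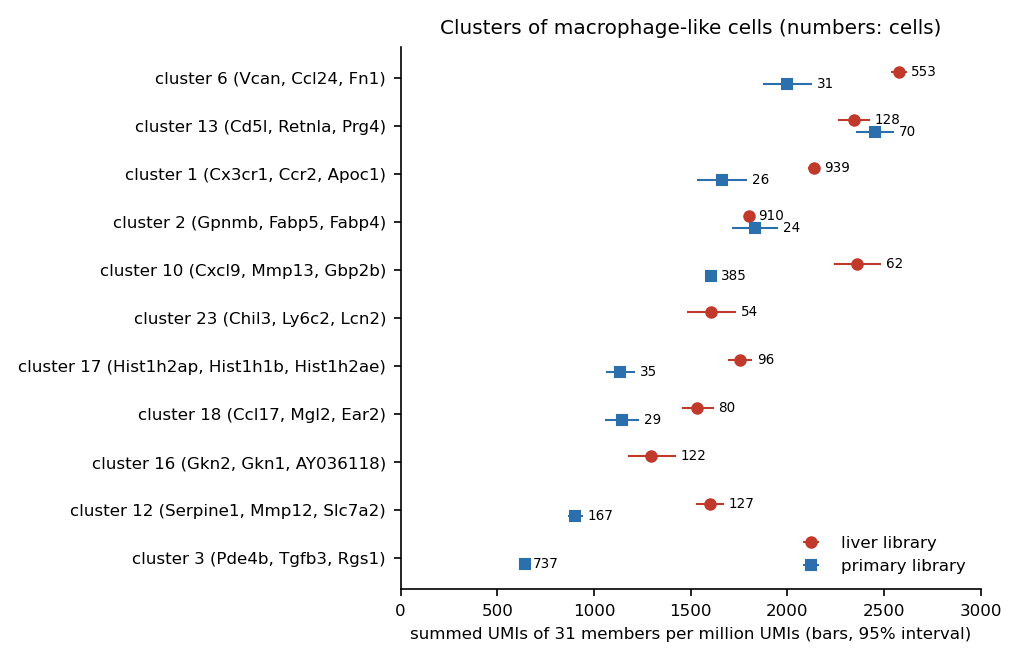
Summed level of the 31 genes in each cluster of macrophage-like cells, in CPM, for liver (red circles) and primary cells (blue squares) where a library has at least 20 cells, with exact 95% Poisson intervals and cell numbers. Cluster 3, almost wholly of primary cells, is lowest at 641, and liver cells are higher in 6 of the 8 clusters that both libraries share.

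The interferons themselves were near or below detection. None of the 20 type I and III ligand genes passed the filter in bulk, and every Ifna gene had 0 reads in all 6 libraries, which allows up to 3 reads per library. Ifnb1 had 1, 0 and 3 reads in the liver tumors and 9, 0 and 3 in the primary tumors. In single cells Ifnb1 had 1 UMI in the liver library and 7 in the primary library, while Ifne had 7, Ifnz 4 and Ifnk 2 in the liver library and 0 each in the primary library. Ifng, the type II ligand, had 91 UMIs in liver and 188 in primary cells, of which 86 and 181 were in T-like cells, and in bulk its log2 change of 0.98 was not called (adjusted p = 0.354 in edgeR).

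Of the receptor genes, Ifnar2 was higher in the liver tumors, with 58.9, 50.7 and 37.3 CPM against 21.6, 25.7 and 24.4 CPM in the primary tumors (log2 change 1.03, SE 0.21, adjusted p = 0.0101). Ifnar1, the other chain of the same receptor, overlapped (0.07). Ifngr1 (-0.61) and Ifnlr1 (-1.29) were lower, and Ifngr2 (-0.65, adjusted p = 0.0536) and Il10rb (-0.45, adjusted p = 0.0983) were not called. In macrophage-like cells Ifnar2 was lower in the liver library, at 82.9 CPM against 108 in the primary library.

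Other lists of the pathway were counted in the same fit, where 16.7% of all tested genes were higher and 6.26% lower. Of 24 transducers and inducers 4 were higher (Irf5, Irf8, Mavs and Jak1), the same share as over all genes, and 0 lower. Of 11 tested genes on a list named for negative regulators, 3 were higher (Nlrc5, Nlrx1 and Rnf125) and Isg20 was lower. The list is a loose one, and that each of its genes damps interferon signaling was not checked. Of 52 further interferon-stimulated genes 17 were higher and 1 lower, with a median log2 change of 0.59, for example Ube2l6, the conjugating enzyme for ISG15 (1.44), and Slfn5 (1.46). The interferon-gamma-induced list had more calls, 19 of 25 higher with a median of 1.29, for example Iigp1, an immunity-related GTPase (3.87, SE 0.28).

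In macrophage-like cells the interferon-gamma-induced list and the 31 genes stood in opposite order. The list summed to 1518 CPM in the liver cells and 2656 in the primary cells, where the 31 genes gave 2024 in liver and 1146 in primary. Cluster 10 held 35244 of the 60126 primary UMIs of the list, and without that cluster it stood at 1451 CPM in liver and 1585 CPM in primary cells. Over the whole class Cxcl9, a gene of the list chosen after its values were seen, had 71.0 CPM in liver and 516 CPM in primary cells. In cluster 10, which leads with Cxcl9, the list stood at 5412 CPM in liver and 5076 CPM in primary cells. In the other clusters that both libraries share it was lower in liver, by little in cluster 12 (1026 against 1027). The liver and primary levels were 2062 and 2393 in cluster 1, 1027 and 1220 in cluster 2, and 1411 and 2275 in cluster 6. They were 1710 and 3145 in cluster 13, 1450 and 3511 in cluster 17, and 2377 and 2423 in cluster 18. In neutrophil-like cells both sets were lower in liver, with 1739 against 3419 CPM for the interferon-gamma-induced list.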

How the data were processed

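Bulk RNA-seq of 3 liver and 3 primary tumors and 1 single-cell library per site were used, grouped by the submitters' labels. The authors deposited raw read counts per gene for the bulk libraries, with FPKM values beside them, and UMI counts per barcode for the single-cell libraries. The FPKM values were used as deposited by the authors, for levels between genes and for an alternative fit. The labels name a 3' kit of version 2 for the single-cell libraries, although the matrices list 6794880 barcodes, as a later kit version would give, so the version is uncertain. The submitters' processing notes name bcl2fastq, Cell Ranger and mm10 without stating their roles. The aligner and counter of the bulk reads, and their strandedness, are not given in the sources used here.

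The 32 genes and the other lists were chosen with earlier results of these data known. All 32 genes are named. Of the other lists at most 4 called genes with the smallest p are named, and of the ligand and receptor lists every gene that passed the filter. In single cells the 5 genes with the most UMIs and the 5 largest and smallest ratios among genes with at least 50 UMIs are named. Irf7 without primary tumor 2, the genes shared across clusters, and the levels of Cxcl9 and Ifnar2 in single cells were chosen after their values were seen. Some items are not reported here.

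The bulk counts were filtered with filterByExpr, scaled by TMM and tested with edgeR 4.0.16 (quasi-likelihood, R 4.3.3), adjusted over all 16487 tested genes at 0.05. Every adjusted p comes from a model fitted across all genes with edgeR. Alternatives used DESeq2 1.42.0, limma 3.58.1 (voom, and log2(FPKM + 1) or log2(FPKM + 0.1)), RLE scaling, no filter, a mean of at least 5 CPM, library sizes without hepatocyte genes, a replicate block, and each library left out. On data simulated from these libraries (16176 genes), edgeR called 12 of 100 genes with a log2 change of 1, 81 of 100 with a change of 2 and 9 of 15976 unchanged genes. Same-numbered libraries of the sites had correlations of deviations of -0.19, 0.27 and 0.10, so the numbers were not taken to pair them.

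Cells were barcodes with 1500 or more UMIs and 200 or more genes, of which mitochondrial UMIs made up 10% or less. Scrublet, at an expected rate of 6%, removed 85 liver and 7 primary barcodes. Cells of both libraries were clustered together, with no step to remove differences between libraries. This used scanpy 1.11.5 and leidenalg 0.10.2 (Python 3.11.15) on 2000 variable genes, 30 components and 15 neighbors, at resolution 0.05 for classes and 1 for the numbered clusters. A cluster took a class name from at least 3 markers more than 2-fold up in at least 10% of its cells. The class names are rebuilt here. UMIs were summed by class and library and scaled to CPM, and shares of cells were compared after thinning to 1500 UMIs, with each cell's random draw kept in every setting but one, which drew anew. Promoters are from RefSeq. Mx1, Mx2, Oas2, Usp18, Ifi27l2a, Dhx58, Zbp1, Parp14 and Rtp4 had no window there.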

Additional observations from a re-analysis of the deposited data

Results flagged for a closer look

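The site difference ran in opposite directions in macrophage-like and neutrophil-like cells, with intervals apart in both classes. The liver-over-primary ratio of the summed level was 3.49 times as large in macrophage-like cells as in neutrophil-like cells. That value uses the ratio of 1.77 over the whole macrophage-like class, which was 1.34 over its shared clusters. The same contrast of ratios is given for the 9 of 31 genes picked as above in macrophage-like and below in neutrophil-like liver cells. That choice fixes a contrast above 1. It was 35.4 for Ifit3, 21.0 for Rsad2, 16.2 for Ifit1, 9.93 for Usp18, 7.997 for Isg15, 7.45 for Irf7, 6.37 for Ifit2, 2.55 for Oasl2 and 2.15 for Trim30a. With 1 library per site the difference between the classes was not tested. In neutrophil-like cells the Ifit3 value rests on 6 liver and 21 primary UMIs, that of Usp18 on 9 and 19, and that of Ifit2 on 14 and 27. Trim30a was not above in liver over the 8 shared macrophage-like clusters.

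Barcodes below the cell filter also held these genes. Among barcodes of 500 to just under 1000 UMIs the 31 genes summed to 747 CPM in the liver library and 304 CPM in the primary library, while barcodes of 10 to 100 UMIs gave 1037 and 1056 CPM in liver and primary. The part of these barcodes in the values per class was not tested.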

How the results depend on the processing

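The 4 genes Stat2, Ifi27l2a, Ifih1 and Parp14 were called in every bulk setting, and 0 of the 32 were called lower in any. DESeq2 called 15 of the 32 higher and 1567 genes lower, against 9 and 1032. Leaving out 1 library gave 4 to 14 of the 32 genes higher, 1810 to 3346 genes higher and 134 to 1468 genes lower. The lowest values came without liver tumor 1 for the 32 genes and without liver tumor 2 for all genes, and the highest without primary tumor 2. With a replicate block 8 of the 32 were called, Rtp4 being lost, and the libraries did not all correlate best with their own number. The median change stayed between 0.42 and 0.63 in every setting.

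The sign of several uncalled genes turned. Ifit3 was -0.04 and became 0.037 with limma-voom and 0.10 with the replicate block, and the limma fits of FPKM gave 0.094 with a pseudocount of 1 and 0.13 with one of 0.1. With 1 library left out, Ifit3 ranged from -0.41 to 0.27, Ifit1 from -0.50 to 0.017, Oas1a from -0.055 to 1.002, Oas2 from -0.27 to 0.49, Oas3 from -0.056 to 0.49 and Oasl1 from -0.45 to 0.34.

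In single cells the macrophage-like ratio was 1.74 at a mitochondrial maximum of 5%. It was 1.34 over shared clusters and 1.33 over those without cluster 18, both settings chosen after seeing the data. Its difference in share of cells was 16.1 points at 3 genes, 2.58 at 8 genes and 3.71 over shared clusters (3.72 without cluster 18, and 3.05 with another draw of the thinning, also chosen after seeing the data). The neutrophil-like ratio was 0.561 at 5%. The epithelial-like ratio was 1.03 at 5%, 0.825 at 20%, 0.935 at a minimum of 1000 UMIs and 0.748 over shared clusters. Its share difference of -0.47 points turned to 0.061 with another draw. Neutrophil-like cells at 3000 UMIs and T-like cells at 5% had too few cells. With 1 mismatch the motif lay in 91.3% of the matched promoters, against 38.9% of all genes. The cause of these shifts was not tested. Neutrophil-like cells had median depths of 2082 UMIs in liver and 2726 in primary.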
